A study of Mus musculus with 6 samples.

Results

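The genes described here, apart from Mrps36, encode proteins of the mitochondrial ribosome, as measured in skeletal muscle of mdx mice. They are the genes whose symbol begins with Mrpl or Mrps followed by a digit in the annotation of the array's probe sets. Of the 19752 genes with a probe set of their own, 77 met this rule, and the brightest probe set represents each gene that has more than 1. RefSeq lists 78 protein-coding genes with such symbols. The missing gene is Mrpl53, whose probe set carries a second symbol.

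Mitochondria keep their own ribosome, which translates the few proteins still encoded in mitochondrial DNA, all of them core subunits of the respiratory chain and ATP synthase. Its RNA comes from mitochondrial DNA, but every one of its proteins is encoded in the nucleus, made in the cytosol and imported. The large subunit (Mrpl genes) forms the peptide bond and lets the new chain out at the inner membrane, and the small subunit (Mrps genes) holds and decodes the messenger RNA. Muscle fibres depend heavily on this machinery for ATP, and inherited defects of several members cause cardiomyopathy, muscle weakness or encephalopathy.

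All mice were mdx, which lack full-length dystrophin and whose muscle fibres degenerate and regenerate among immune cells. In 3 samples the mice had received the anti-CD25 antibody PC61, a monoclonal that binds the interleukin-2 receptor alpha chain on regulatory T cells and on other activated T cells. In the other 3 they had received rat IgG. Both antibodies were injected intraperitoneally 2 times, on days 17 and 20 of age, to ask what regulatory T cell depletion changes in dystrophic muscle. Muscle was taken at 27 days of age by the design text, 7 days past the second injection, but at 6 weeks (42 days) by the sample labels. Labels call all animals male, but Xist, the RNA of the inactive X chromosome, was bright on 4 arrays (rat IgG 1 and 2, anti-CD25 1 and 2, 11.77 to 11.94 log2 units) and dim on rat IgG 3 and anti-CD25 3 (5.48 and 5.49). The labels do not say that each sample is a separate animal, so p-values measure the spread among the arrays, some of which may be technical. Values are given on rat IgG arrays 1, 2 and 3 and then on anti-CD25 arrays 1, 2 and 3. The 11 muscle fibre markers were bright (10.6 to 13.8 log2 units). Array medians ran from 149.8 to 151.5 intensity units, and lower quartiles from 51.2 to 57.7. With 6 arrays in all, the number of arrays limits the precision.

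Promoter sequences are given first, as the letters the members share. RefSeq promoter windows (GRCm38.p6, 250 bases before to 50 after the transcription start) were found for 68 members and for 15435 of all measured genes. The core recognised by nuclear respiratory factor 1 (NRF1), a palindrome-like string with 1 free base whose letters stand in capitals in the first stretches below, was present on either strand in 13 of the 68 member windows (19.1%) and in 7.32% of all windows. CCGGAAG, the core of the ETS factor GABPA, also called nuclear respiratory factor 2, was present in 24 (35.3%) against 12.6%. AAGATGGC, the core of YY1, was present in 12 (17.6%) against 3.45%. At least 1 of these 3 strings was found in 41 member windows (60.3%) and in 20.9% of all windows. Other strings were near the background or below it. GGGCGG (SP1) was present in 50% of member windows and in 50.2% of all, CCAAT (NF-Y) in 38.2% and 38.3%, CACGTG (E-box) in 7.35% and 8.41%, TATAAA, the core promoter element bound by TBP, in 5.88% and 12.1%, and TCAAGGTCA (estrogen-related receptors) in 0 of 68 and 0.298%. All were searched on both strands, and none of these strings contains another. The GC content was alike, with medians of 58.2% and 57.7%. These shares describe letters in a window and show no binding.

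The stretches below, read from RefSeq 5′ to 3′ on the gene's own strand with the motif letters in capitals, show where the strings stand before the start in 7 large subunit genes, Mrps18a among them, and in Mrps12 of the small subunit. NRF1 letters, in either orientation, stand in the first 4, GABPA letters in the next 3 and YY1 letters, on the opposite strand, in the last. They lie between 26 bases (Mrps18a) and 199 bases (Mrps12) before the start, and Mrpl45 holds the NRF1 letters at 2 places in the stretch shown.
Mrpl12 (chr11:120484526-120484595, plus strand): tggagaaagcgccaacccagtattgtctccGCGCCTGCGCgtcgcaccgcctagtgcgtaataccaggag
Mrpl30 (chr1:37890364-37890433, plus strand): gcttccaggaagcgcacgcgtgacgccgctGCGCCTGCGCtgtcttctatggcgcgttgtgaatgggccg
Mrpl44 (chr1:79775953-79776017, plus strand): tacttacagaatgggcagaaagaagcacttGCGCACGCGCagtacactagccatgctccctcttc
Mrpl45 (chr11:97315566-97315715, plus strand): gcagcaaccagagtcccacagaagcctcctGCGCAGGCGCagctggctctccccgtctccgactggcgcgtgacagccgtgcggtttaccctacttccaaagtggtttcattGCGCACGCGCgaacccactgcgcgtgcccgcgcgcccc
Mrpl22 (chr11:58171581-58171647, plus strand): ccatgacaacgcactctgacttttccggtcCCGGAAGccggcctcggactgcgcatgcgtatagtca
Mrpl27 (chr11:94653706-94653772, plus strand): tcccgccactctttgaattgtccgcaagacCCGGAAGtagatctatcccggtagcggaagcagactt
Mrps18a (chr17:46110948-46111003, plus strand): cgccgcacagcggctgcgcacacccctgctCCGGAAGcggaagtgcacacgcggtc
Mrps12 (chr7:28741983-28742050, minus strand): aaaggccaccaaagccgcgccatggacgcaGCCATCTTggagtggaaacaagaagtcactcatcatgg

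**Figure D1:**
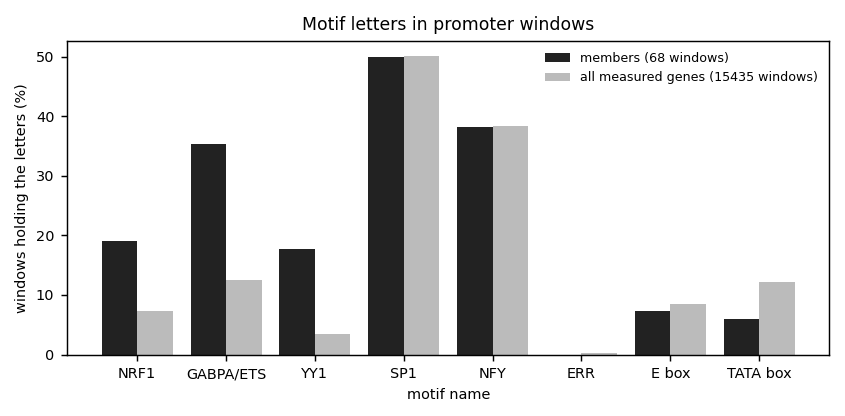
Share of RefSeq promoter windows (y axis, %) that hold the letters of each named motif on either strand (x axis), for 68 members (black bars) and 15435 measured genes (grey bars). NRF1, GABPA and YY1 letters stand at 19.1%, 35.3% and 17.6% in members against 7.32%, 12.6% and 3.45%.

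Most members lay above the array medians and varied less than the median gene. Levels are log2 intensities of a probe set, and since probes differ in affinity they order probe sets, not transcript amounts. The median member level was 8.82 and the range 7.15 to 11.15, and 71 of 77 members lay above the median of every array. The other 6 were Mrpl22, Mrpl47, Mrps17, Mrpl44, Mrps12 and Mrps30. The median member stood at the 77.6th percentile of all genes. Large subunit members had a median level of 8.93 (50 genes) and small subunit members 8.68 (26 genes). The remaining gene, Mrps36, carries a ribosomal name, but its product is now placed with the 2-oxoglutarate dehydrogenase complex. Over the 6 arrays the median SD of a member was 0.10 log2 units, and 59 of 77 lay under the 0.13 of the median gene.

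**Figure D2:**
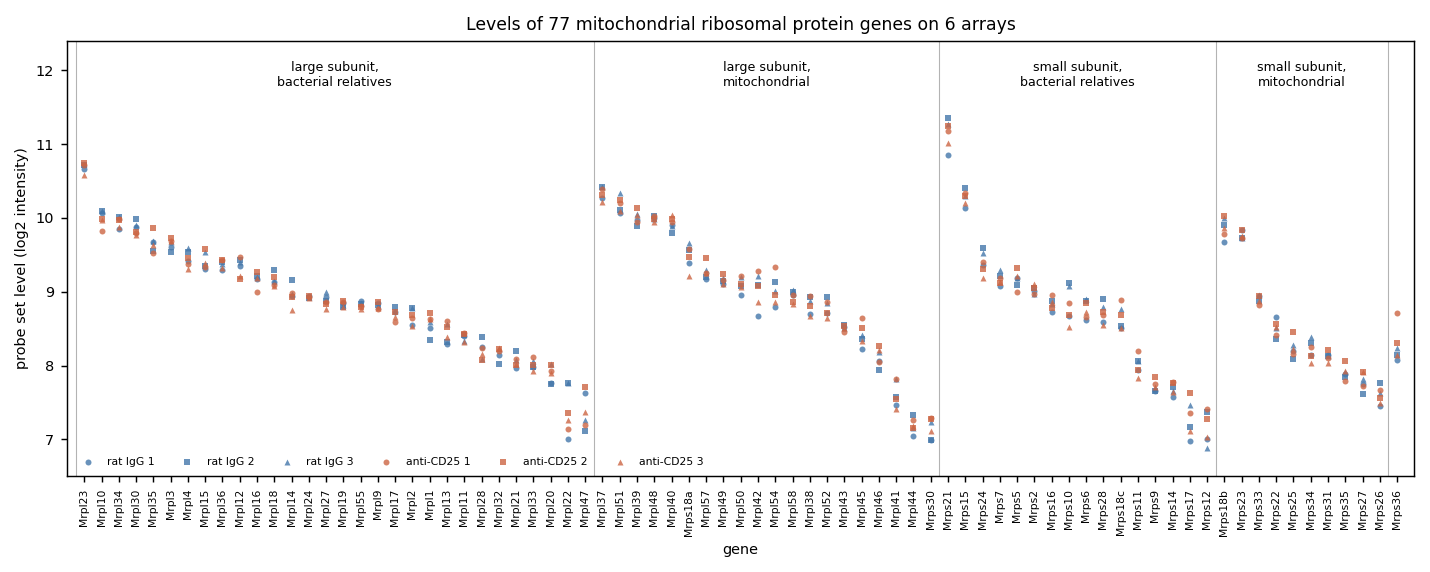
Level (y axis, log2 intensity) of each of the 77 genes (x axis, grouped by subunit and class). The classes, bacterial relatives and mitochondrial, are approximate. The 3 rat IgG arrays are blue and the 3 anti-CD25 arrays orange, with 1 point per array. Points of a gene lie close together, with a median range over the 6 arrays of 0.27 log2 units, and colours intermix for most genes.

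No mitochondrial ribosomal protein gene was called different between anti-CD25 and rat IgG. With anti-CD25, 39 of 77 were higher and 38 lower, and the median difference (positive means higher with anti-CD25) was 6.4e-05 log2 units. Over all genes 41.1% were higher and the median was -0.026. By limma with Benjamini-Hochberg adjustment over all genes, 0 of 77 reached an adjusted p under 0.05 (smallest 0.750), as did 0% of all genes. An unadjusted p under 0.05 was reached by 0 of 77 and by 6.28% of all genes, of which 2.3% were higher and 3.98% lower with anti-CD25. The smallest unadjusted p of a member was 0.0710 in the same limma model. The differences spanned -0.28 to 0.24, and 52 members differed by less than 0.1 in either direction. The moderated 95% interval reached a median of 0.21 to each side and lay wholly within 0.5 log2 units (1.41-fold) of 0 for 73 members. For Mrps10, Mrpl22, Mrps17 and Mrps36 it reached further, to -0.58, -0.69, 0.51 and 0.55. In whole muscle, fewer cells of a type and less RNA per cell cannot be told apart.

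**Figure D3:**
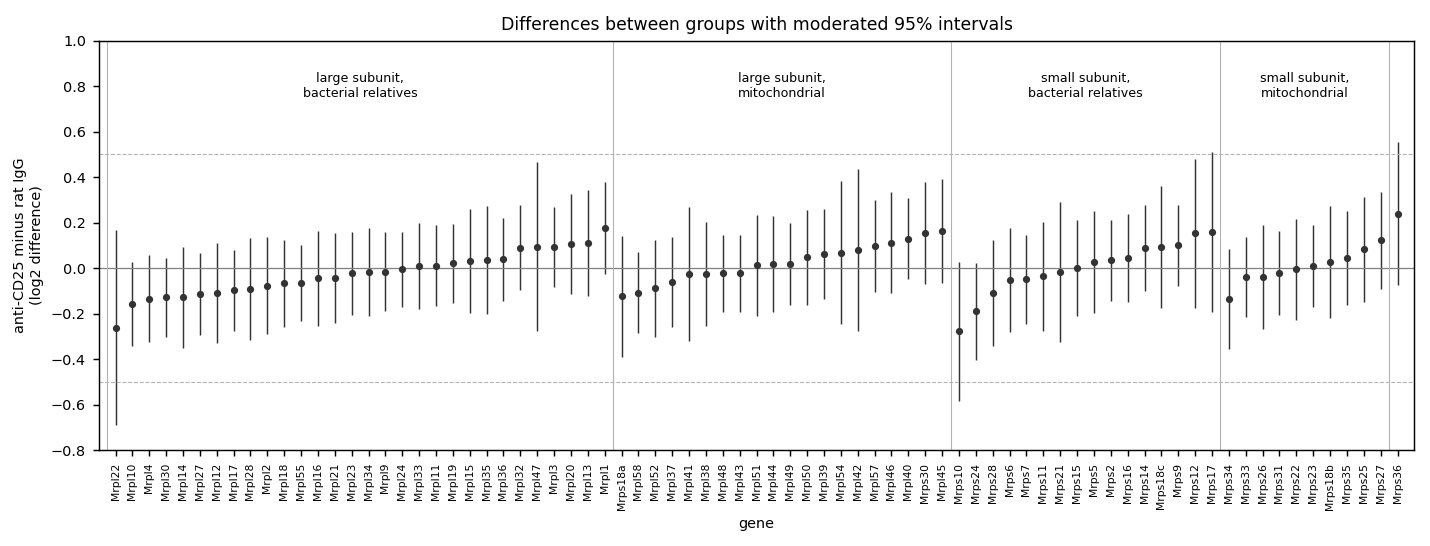
Difference between groups (y axis, anti-CD25 minus rat IgG, log2) of each of the 77 genes (x axis, grouped by subunit and class), with moderated 95% intervals from limma as bars and dashed lines at 0.5 log2 units to each side. All 77 intervals include 0, and 73 lie between the dashed lines.

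The groups did not overlap in 8 members (10.4%), against 11.7% of all genes. Of these, 4 were higher, Mrpl1, Mrpl40, Mrpl3 and Mrps9 (5.19%, against 4.28% of all genes), and 4 lower, Mrpl10, Mrpl30, Mrpl27 and Mrpl55 (5.19%, against 7.46%). Both shares are near the background. Split by class, the 30 large subunit proteins with bacterial relatives had 12 members higher and a median of -0.019. The mitochondrial class of the large subunit (20 measured) had 12 higher and a median of 0.020. It holds Mrps18a, a relative of bacterial S18, and Mrpl44, an RNase III relative, so the classes are approximate. Among small subunit proteins, 9 of 16 with bacterial relatives were higher (median 0.013), as were 5 of 10 in the mitochondrial class (median 0.0019). Mrps18b, another S18 relative, is in the latter class. Of the 15 members mutated in inherited human mitochondrial disease, 9 were higher, with a median of 0.019. The 45 members not described one by one below had differences between -0.13 and 0.11.

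Large subunit members with the lowest statistics included Mrpl10, which anchors the stalk that recruits translation factors. Mrpl10 measured 10.06, 10.10 and 10.10 log2 units with rat IgG against 9.82, 9.99 and 9.98 with anti-CD25. All 3 anti-CD25 arrays lay below all rat IgG arrays. The group means differed by -0.16 (SE 0.082, limma adjusted p = 0.750), or -0.10 without anti-CD25 1. Its stalk partner Mrpl12, which also binds the mitochondrial RNA polymerase, measured 9.34, 9.43 and 9.40 with rat IgG and 9.46, 9.17 and 9.21 with anti-CD25. Here anti-CD25 1 was the highest array and the other two were the lowest, so the groups overlapped around a difference of -0.11 (SE 0.097), which was -0.20 without anti-CD25 1 and -0.054 without anti-CD25 2. Mrpl11, the third protein of the stalk base, differed by 0.012 (SE 0.079).

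Mrpl30 measured 9.87, 9.99 and 9.91 with rat IgG and 9.80, 9.81 and 9.77 with anti-CD25. Its groups did not overlap, and their means differed by -0.13 (SE 0.077, limma adjusted p = 0.750). Mrpl4, which reaches the wall of the exit tunnel, measured 9.42, 9.54 and 9.59 against 9.38, 9.45 and 9.31, and its groups overlapped (difference -0.13, SE 0.084). Mrpl27, whose bacterial relative touches the peptidyl transferase centre, measured 8.92, 8.87 and 9.00 against 8.86, 8.83 and 8.76, a difference of -0.11 (SE 0.079). Its second, dimmer probe set differed by 0.023, so the pair disagreed in sign.

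Mrpl1 had the highest statistic of all members. Mrpl1 forms the mobile L1 stalk where spent transfer RNA leaves. It measured 8.50, 8.35 and 8.59 with rat IgG and 8.64, 8.71 and 8.63 with anti-CD25. The anti-CD25 arrays lay above all rat IgG arrays. The group means differed by 0.18 (SE 0.088, 95% interval -0.02 to 0.38, limma adjusted p = 0.750), or 0.11 without rat IgG 2. Mrpl40, a gene of the DiGeorge syndrome region in humans, measured 9.91, 9.80 and 9.88 against 9.95, 9.99 and 10.04, a difference of 0.13 (SE 0.078). Mrpl3, which reaches toward the peptidyl transferase centre, measured 9.61, 9.54 and 9.67 against 9.69, 9.73 and 9.69, a difference of 0.094 (SE 0.078), or 0.061 without rat IgG 2. In Mrpl1, Mrpl40 and Mrpl3, and in Mrpl10, Mrpl30 and Mrpl27, the gap between the nearest arrays of the groups was under 0.1 log2 units.

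Proteins around the tunnel exit, where the ribosome meets the inner membrane, had differences of both signs. Mrpl45, which ties the ribosome to the membrane, measured 8.23, 8.36 and 8.41 with rat IgG and 8.64, 8.51 and 8.34 with anti-CD25 (difference 0.16, SE 0.10). Its difference was 0.093 without anti-CD25 1. Mrpl22, a tunnel protein, measured 7.01, 7.76 and 7.77 against 7.14, 7.35 and 7.26. It had the widest spread of all members, and rat IgG 1 lay below every anti-CD25 array while rat IgG 2 and 3 lay above them. The difference was -0.26 (SE 0.19), -0.51 without rat IgG 1 and -0.13 without rat IgG 3. Mrpl47 measured 7.63, 7.11 and 7.26 against 7.19, 7.71 and 7.37, so rat IgG 1 and anti-CD25 2 were high in opposite groups (difference 0.094, SE 0.16). Its second probe set differed by -0.12. Mrpl24 was the steadiest, between 8.91 and 8.94 on all arrays, with a difference of -0.0054 (SE 0.073). Mrpl23, the brightest large subunit probe set, differed by -0.023 (SE 0.081), and Mrpl44, an RNase III relative mutated in infantile cardiomyopathy, by 0.019 (SE 0.094). Mrpl37, also bright at 10.34, differed by -0.060 (SE 0.088), or -0.014 without anti-CD25 3.

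In the small subunit Mrps10, a protein of its head, had the lowest statistic of all 77. It measured 8.68, 9.12 and 9.08 against 8.84, 8.68 and 8.53. Rat IgG 2 and 3 lay above every anti-CD25 array, and rat IgG 1 lay among them. The difference was -0.28 (SE 0.13, 95% interval -0.58 to 0.029, limma adjusted p = 0.750), or 1.21-fold lower, and -0.42 without rat IgG 1. Mrps24, which lines the messenger RNA entrance, had a like order, with 9.36, 9.59 and 9.52 against 9.40, 9.31 and 9.19 (difference -0.19, SE 0.094). Mrps34, mutated in Leigh syndrome, measured 8.14, 8.30 and 8.38 against 8.25, 8.13 and 8.04 (difference -0.14, SE 0.096, and -0.082 without rat IgG 3).

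Mrps12, the decoding centre protein whose bacterial relative sets streptomycin sensitivity, was dim and variable. It measured 7.01, 7.37 and 6.88 with rat IgG and 7.42, 7.27 and 7.03 with anti-CD25 (difference 0.15, SE 0.14). With 1 array left out the difference ranged from 0.051 (rat IgG 3 left out) to 0.30 (rat IgG 2 left out). Mrps17 measured 6.98, 7.17 and 7.46 against 7.35, 7.62 and 7.12 (difference 0.16, SE 0.16), and Mrps27, a pentatricopeptide repeat protein, 7.75, 7.62 and 7.81 against 7.72, 7.91 and 7.91 (difference 0.12, SE 0.094). In all 3 genes the groups overlapped. Leaving out 1 array gave Mrps17 differences from 0.028 (anti-CD25 2 left out) to 0.29 (rat IgG 3 left out), and that of Mrps27 was 0.068 without rat IgG 2. Mrps21 had the brightest probe set of the family, with 10.85, 11.35 and 11.28 against 11.18, 11.25 and 11.01, and differed by -0.015 (SE 0.14). Mrps2, Mrps7, Mrps16 and Mrps22 differed by 0.035, -0.049, 0.046 and -0.0054, with SE from 0.078 to 0.097.

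Mammals have 3 relatives of the bacterial protein S18, which sit at different places in the ribosome. Mrps18a, found in the large subunit despite its name, measured 9.39, 9.57 and 9.66 with rat IgG and 9.57, 9.47 and 9.21 with anti-CD25 (difference -0.12, SE 0.12). Mrps18b, of the small subunit, measured 9.68, 9.91 and 10.00 against 9.78, 10.02 and 9.86 (difference 0.028, SE 0.11). Mrps18c, the third, measured 8.51, 8.53 and 8.77 against 8.89, 8.69 and 8.51 (difference 0.093, SE 0.12). The groups overlapped in all 3 genes. The Mrps18a difference was -0.019 without anti-CD25 3, and that of Mrps18c was -0.0052 without anti-CD25 1. Mrps30, another large subunit protein with a small subunit name, had the dimmest probe set of the family and measured 6.99, 7.00 and 7.24 against 7.29, 7.28 and 7.12 (difference 0.15, SE 0.098, and 0.24 without rat IgG 3).

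Mrps36, the member outside the ribosome, had the largest positive difference, 0.24 (SE 0.14, 95% interval -0.074 to 0.55, limma adjusted p = 0.750). It measured 8.07, 8.15 and 8.23 with rat IgG and 8.71, 8.31 and 8.15 with anti-CD25. Anti-CD25 1 stood above the rest, and without it the difference was 0.077. Its second probe set gave 0.28. Of the 8 members with several probe sets, 3 disagreed in sign, Mrpl27, Mrpl47 and Mrps33. RefSeq lists pseudogenes of Mrpl23, Mrpl27, Mrpl48 and Mrps36, and probes for near-identical copies cannot be told apart here, so these genes are uncertain. Across the 32 members described one by one, leaving out 1 array turned the sign in 10 and moved the difference by more than 1.5 times, with its sign kept, in 17.

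The members varied together from array to array in part. On rat IgG 3, 57 of 77 members lay above their own mean over the 6 arrays, against 22 on rat IgG 1 and 14 on anti-CD25 3. Rat IgG 2 had 44, anti-CD25 1 had 47 and anti-CD25 2 had 51. The 2 low arrays belong to different groups. Over all genes the share above the mean ran only from 39.2% to 58.0%. The average member level was 8.75 to 8.87 on the rat IgG arrays and 8.75 to 8.86 on the anti-CD25 arrays. Anti-CD25 3 and rat IgG 1 were each the lowest array for 26 members, and rat IgG 3 and anti-CD25 2 for 2 each. The mean Pearson correlation over the 2926 pairs of members, across 6 arrays and given as a description, was 0.18, against 0.014 for all genes. Correlations were above 0 in 1884 pairs (64.4%), over 0.8 in 246 and under -0.8 in 42. The mean was 0.23 after removal of group means. Single members followed the mean of the others to different degrees, from 0.94 for Mrpl34, 0.88 for Mrps21 and 0.88 for Mrpl42 down to -0.52 for Mrps22, and 66 of 77 had a correlation above 0. Pairs on these arrays share the arrays' brightness distribution, and lower quartiles differed between arrays. After a second quantile normalization, which equalizes them, the mean correlation was 0.083. The counts above the mean were then 26, 53 and 42 for the rat IgG arrays and 44, 34 and 21 for the anti-CD25 arrays, in order of number, so rat IgG 2 in place of rat IgG 3 had the most, and rat IgG 1 and anti-CD25 3 still had the fewest.

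**Figure D4:**
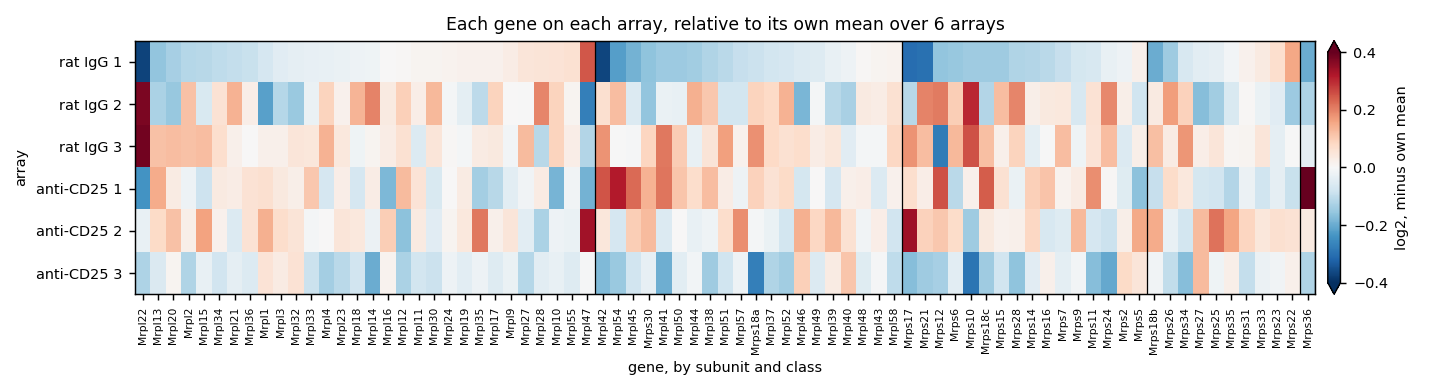
Each member (x axis, by subunit and class, from lowest to highest on rat IgG 1 within a class) on each array (y axis), as log2 level minus its own mean over 6 arrays, with red above and blue below. Rat IgG 1 and anti-CD25 3 are mostly blue, with 22 and 14 of 77 members above their mean, and rat IgG 3 is mostly red, with 57.

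Beside the members stand the cytosolic ribosome and the respiratory chain. Of 79 cytosolic ribosomal protein genes listed, 54 were measured, and they had a mean pairwise correlation of 0.44. Of 78 nuclear respiratory chain and ATP synthase genes, the machinery whose core the mitochondrial ribosome makes, 74 were measured, with 0.42. For both lists the correlation was not computed after the second quantile normalization, where that of the members was 0.083. On anti-CD25 2, 51 of 77 members lay above their mean against 6 of 54 cytosolic ribosomal genes, and after the second quantile normalization 34 of 77 against 3 of 54. On anti-CD25 3, 14 of 77 members and 5 of 74 respiratory chain genes lay above their mean. On that array 1 of 11 muscle fibre markers, 18 of 54 cytosolic ribosomal genes and 51.7% of all genes did. Respiratory chain genes were higher with anti-CD25 in 15 of 74 (median -0.055) and cytosolic ribosomal genes in 38 of 54 (median 0.034), with 0 genes of either list at an unadjusted p under 0.05 in limma's test. Without anti-CD25 3 the respiratory chain count was 33 of 74 (median -0.0087), and without anti-CD25 1 the cytosolic count was 22 of 54 (median -0.017). The difference between the lists was not tested.

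**Figure D5:**
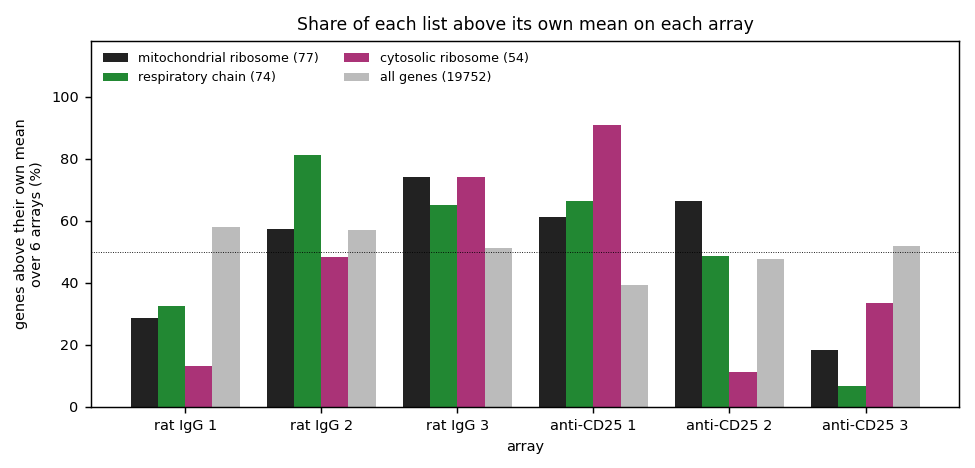
Share of genes above their own mean over 6 arrays (y axis, %) on each array (x axis), with a dotted line at 50%. Bars show the mitochondrial ribosome list, which includes Mrps36 (black), respiratory chain (green), cytosolic ribosome (purple) and all genes (grey). Mitochondrial ribosomal genes stand lowest on anti-CD25 3 (18.2%) and rat IgG 1 (28.6%), arrays of different groups.

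Within the arrays of bright Xist (read as female) and of dim Xist (read as male) the members gave different pictures. On the 4 arrays with bright Xist 52 of 77 were higher with anti-CD25 and the median difference was 0.048, where 42.5% of all genes were higher and their median was -0.036. Between the 2 arrays with dim Xist, anti-CD25 3 and rat IgG 3, 18 of 77 were higher and the median was -0.096, where 50.01% of all genes were higher and their median was 0.000044. In 38 members the difference was above 0 in the first comparison and below 0 in the second, among them Mrps18c (0.27 and -0.26), Mrps17 (0.41 and -0.35) and Mrpl45 (0.28 and -0.072). Mrpl40, Mrpl1 and Mrpl3 were higher in both, with 0.12 and 0.16, 0.25 and 0.037, and 0.13 and 0.014, and Mrps10, Mrpl10 and Mrpl30 lower in both, with -0.14 and -0.55, -0.18 and -0.12, and -0.12 and -0.14. The second comparison has 1 array a side and no replicate check.

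Other genes of mitochondrial gene expression were described from fixed lists, and none reached an adjusted p under 0.05 by limma. Of 4 measured ribosomal proteins with other names, 3 were higher. Ptcd3, a pentatricopeptide protein of the small subunit, measured 9.15, 8.82 and 9.11 with rat IgG and 9.20, 9.27 and 9.24 with anti-CD25, with no overlap (difference 0.21, SE 0.10, and 0.11 without rat IgG 2, its lowest array), and Gadd45gip1, of the large subunit, differed by -0.14 (SE 0.098). Of 12 translation factors 8 were higher (median 0.039), with Guf1, the back-translocating GTPase, at 0.24 (SE 0.13) and Tsfm, the exchange factor of the elongation factor Tufm, at -0.14 (SE 0.10). Among 25 assembly and ribosomal RNA modification genes 11 were higher (median -0.015), and Mtg1, an assembly GTPase, and the pseudouridine synthase Trub2 differed by -0.16 and -0.13. Of 19 mitochondrial tRNA synthetase and amidotransferase genes 10 were higher (median 0.012), with Yars2 at 0.19 and Vars2 at -0.13. Genes that copy and transcribe mitochondrial DNA were higher in 6 of 10 (median 0.012), with Ssbp1 at -0.10 and Polg2 at 0.080. Chaperones and proteases of the matrix and inner membrane were higher in 5 of 10 (median 0.013), with the chaperonin pair Hspe1 and Hspd1 at 0.21 and 0.18. None of the genes in these lists had an unadjusted p under 0.05. Of the 14 genes named here and among the biogenesis regulators below, 9 moved by more than 1.5 times when 1 array was left out, and 0 turned.

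Of 9 regulators of mitochondrial biogenesis 5 were higher, with a median of 0.070. In limma's test 2 had an unadjusted p under 0.05, Ppargc1a (higher) and Ppargc1b (lower). Over all genes 6.28% did, 2.3% higher and 3.98% lower. The list was chosen with earlier results of these data known. Ppargc1a, the coactivator that works with NRF1 and GABPA, measured 9.32, 9.48 and 9.26 with rat IgG and 9.65, 9.90 and 9.94 with anti-CD25. Every anti-CD25 array lay above every rat IgG array, and the group means differed by 0.48 (SE 0.10, 95% interval 0.24 to 0.71). The unadjusted p was 0.0013 but the adjusted p was 0.750 in limma's test. Its relative Ppargc1b measured 8.67, 8.62 and 8.48 against 8.34, 8.42 and 8.19, a difference of -0.27 (SE 0.093, limma adjusted p = 0.750). Members whose windows held NRF1 letters had a median difference of -0.014 (13 genes) and those without 6.4e-05 (55 genes), and for GABPA letters the medians were -0.015 (24 genes) and 0.015 (44 genes).

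Leukocyte and macrophage markers, taken as a single list, were higher with anti-CD25 in these samples, though none reached an adjusted p under 0.05 by limma. In limma's test 5 of 10 had an unadjusted p under 0.05, all of them higher, where 2.3% of all genes were higher at that limit. All 10 measured markers were higher with anti-CD25, with a median difference of 0.41, and their mean level was 9.45 to 9.96 on the rat IgG arrays and 9.89 to 10.30 on the anti-CD25 arrays. Rat IgG 2 was the lowest array, with 0 of 10 markers above their mean, and without it the median was 0.24. The 9 measured mitosis genes were all higher, with a median of 0.29, or 0.15 without rat IgG 2, and 2 had an unadjusted p under 0.05 in limma's test. Fibre markers had 2 of 11 higher and a median of -0.018. The part of these in the members' values was not tested.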

How the data were processed

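The table the authors deposited holds intensity values of 24922 probe sets on 6 Affymetrix arrays. The submitters' processing notes name RMA and Affymetrix Power Tools, and their versions are not given in the sources used. RMA corrects background and normalizes arrays to common quantiles, and it draws dim values together. The deposited intensity values are linear, so log2 was taken, with no pseudocount. The platform's annotation gave 21425 probe sets 1 symbol, 1399 several and 2098 none, and genes with several took the brightest. Depth does not apply to arrays.

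Each of 19752 genes was tested with limma 3.58.1 in R 4.3.3 (lmFit and eBayes, two-sided, group as the only term), with Benjamini-Hochberg adjustment over all genes. The script was tested on simulated data. The members and lists were chosen with earlier results of these data known. Named members are the 6 with the largest and the 6 with the lowest statistics, the 3 brightest, the 3 dimmest, the 4 most variable and 19 fixed ones; in the other mitochondrial lists, the 2 largest statistics of each. Mrps9, Mrpl55 and Mrps33 were named after their values were seen. Alternatives were another normalization, median centring, a variance trend, a filter on dim genes, the mean of all probe sets, the title number as a replicate block, Xist class, and leaving out each array.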

Additional observations from a re-analysis of the deposited data

How the results depend on the processing

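In limma fits under the 14 alternatives run, no member reached an adjusted p under 0.05 (smallest 0.130, on the 4 arrays with bright Xist, chosen after seeing the data), and the count over all genes stayed at 0 except for 7 without rat IgG 3. Unadjusted p under 0.05 was reached by 0 to 7 members, where 3.36% to 20.7% of all genes reached it. The replicate block, which takes the title numbers as pairs, gave 39 members higher, the same median of 6.4e-05 and 0 calls. Same-numbered arrays correlated at 0.030, -0.0067 and -0.17 in their deviations from the group means, so the numbers are not taken as pairs. With each array left out, the count of members higher was 27 to 48, the median -0.026 to 0.039 and the mean pairwise correlation 0.12 to 0.24. The count was 32 (median -0.022) after a second quantile normalization, with a mean pairwise correlation of 0.083, and 18 (median -0.096) between the 2 arrays with dim Xist; the cause was not tested. Of the named members' differences, 418 kept their sign and 30 turned, not counting the 2 arrays with dim Xist, where 8 of the 32 turned. Turned values were, after the second quantile normalization, -0.0092 for Mrpl11 and -0.00049 for Mrps18b; after median centring, 0.0021 for Mrpl24 and 0.0021 for Mrps22; with the mean of all probe sets, -0.012 for Mrpl47. On the arrays with bright Xist they were 0.041 for Mrpl23, 0.0045 for Mrpl24, 0.012 for Mrpl37, 0.042 for Mrps18a, -0.014 for Mrps2, 0.11 for Mrps21 and 0.0066 for Mrps7. With an array left out, differences ran from -0.013 to 0.051 for Mrpl11, -0.052 to 0.026 for Mrpl23, -0.012 to 0.0037 for Mrpl24, -0.047 to 0.095 for Mrpl44, -0.050 to 0.24 for Mrpl47, -0.11 to 5.5e-05 for Mrps7, -0.064 to 0.096 for Mrps18b, -0.0052 to 0.19 for Mrps18c, -0.17 to 0.080 for Mrps21 and -0.079 to 0.070 for Mrps22. Dim probe sets limit what can be seen of Mrps30, Mrps12, Mrpl44 and the other members near the array medians.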
